A study of Mus musculus with 12 samples.

Results

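PFI-3-treated cells at 48 h of differentiation were compared with vehicle-treated cells at 24 h, to ask which genes of the treated culture matched the earlier vehicle state, lagged behind it or had gone beyond it. The comparison used 4 of the 12 libraries of the series, chosen by treatment and time. The cells were C2C12, an immortalized mouse myoblast line that leaves the cell cycle and fuses into multinucleated myotubes when serum is withdrawn. The earlier group received DMSO, the vehicle, and was harvested 24 h after induction. The later group received 50 uM PFI-3 and was harvested 48 h after induction. Both groups were exposed for 12 h before induction, with compound or vehicle replaced every 24 h, and both were induced in horse serum with insulin. The 2 groups therefore differ in treatment, in time in differentiation medium and in length of exposure, and these cannot be told apart within this comparison. Each group had 2 libraries, A and B, which the labels call biological duplicates. P-values measure the spread between such duplicates of a single line, which may in part be technical.

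PFI-3 binds the bromodomains of BRM and BRG1, the ATPases of the SWI/SNF chromatin remodellers, and a bromodomain of PBRM1. In myoblasts, MyoD recruits these remodellers to muscle genes before they are switched on. Myogenin is activated early, cyclin-dependent kinase inhibitors then close the cell cycle, and the genes of the contractile apparatus follow. The comparison sets early and late genes of this order beside the levels of the younger vehicle culture.

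The files listed 15309 genes in at least 1 of the 4 libraries, of 16288 in the whole series, and 12371 passed the low-count filter. Total expected counts lay between 12576374 and 12965360 per library. Between duplicates, the log2 ratio had an SD of 0.144 at 24 h with vehicle and 0.140 at 48 h with PFI-3, for the 10600 genes averaging 50 counts or more. Myoblast and muscle markers were present in all 4 libraries. Des stood at 813 and 787 CPM (counts scaled to a common library total) in vehicle and at 1838 and 1745 CPM with PFI-3, Cdh15 at 637 and 659 against 481 and 440 CPM, and Myf5 at 42.7 and 38.9 against 39.0 and 38.1 CPM. Of the defining markers of other cells, Adipoq, Plin1, Lep, Cidec, Ibsp, Acan, Col9a1, Adgre1 and Kdr had no count in these libraries, and Fabp4, Myocd and Ptprc had at most 1. Others of these lists were expressed. Runx2, of bone and early mesenchyme, was at 108 and 111 CPM with vehicle and 57.6 and 63.5 CPM with PFI-3. Dmp1 was at 17.4 and 14.3 against 9.06 and 7.95 CPM, and both were called lower by at least 1.5-fold. The bone markers Alpl and Sp7, below the filter, went the other way. Alpl had 0 and 0 counts with vehicle and 8 and 4 with PFI-3, and Sp7 had 1 and 0 against 0 and 5. Pparg, of the fat lineage, was called higher by at least 1.5-fold, at 3.16 and 3.09 against 4.92 and 6.32 CPM. Cebpa, at 11.3 and 10.7 against 16.4 and 15.9 CPM, was also called higher (adjusted p = 0.000138 by edgeR), but by under 1.5-fold. Its call was lost in the fit of all 12 libraries (adjusted p = 0.141). Their part in the results was not tested. Because RNA was taken from whole cultures, fewer cells of a type and less RNA per cell cannot be told apart.

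At an adjusted p under 0.05 (edgeR's quasi-likelihood test, Benjamini-Hochberg), 3328 genes (26.9%) were higher with PFI-3 at 48 h and 3259 (26.3%) were lower. Most of these differences were small. Counting only called genes that differed at least 1.5-fold, 1208 (9.76%) were higher and 849 (6.86%) lower. For 7766 genes (62.8%) the 95% interval of the fold change lay inside 1.5-fold in either direction, and these are described as matched. The remaining 2548 (20.6%) were undecided, being neither matched nor called with a difference of at least 1.5-fold. Matched and undecided genes can still be called, with a fitted difference under 1.5-fold. The median log2 fold change over all genes was 0.00.

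Whether a difference lies ahead of or behind the 24 h state depends on the gene's own direction. Direction was taken from 4 libraries outside the comparison, proliferating vehicle cells and vehicle cells at 48 h. A gene was called induced or repressed if it differed at least 2-fold between those stages at an adjusted p under 0.05 (edgeR's quasi-likelihood test). The 2 proliferating libraries were less alike than the others, with an SD of their log2 ratio of 0.321 against 0.143 for vehicle at 48 h. Of the induced genes, 2287 were tested in the comparison. With PFI-3 at 48 h, 808 of them (35.3%) were at least 1.5-fold above vehicle at 24 h, where 9.76% of all genes were. A further 749 (32.8%) were matched, 136 (5.95%) were at least 1.5-fold below, where 6.86% of all genes were, and 594 were undecided. Their median log2 fold change was 0.40.

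Repressed genes were more often lower than higher. Of 1634 tested, 413 (25.3%) had fallen at least 1.5-fold below the 24 h vehicle level and 714 (43.7%) were matched. A further 46 (2.82%) were at least 1.5-fold above it, and 461 were undecided. The shares of all genes lower, matched and higher were 6.86%, 62.8% and 9.76%. The median log2 fold change was -0.38. Among 8189 genes that were neither induced nor repressed, 6303 (77%) were matched, 289 were at least 1.5-fold higher and 281 at least 1.5-fold lower, with a median log2 fold change of 0.00.

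**Figure D1:**
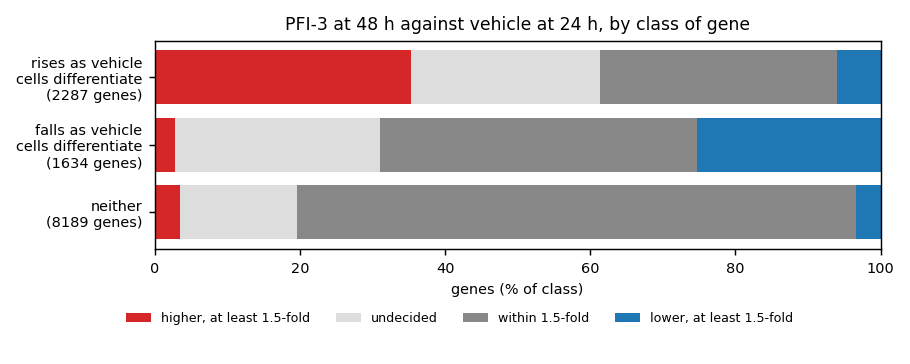
Horizontal bars give the share of genes (% of the class) that were at least 1.5-fold higher, undecided, within 1.5-fold or at least 1.5-fold lower with PFI-3 at 48 h than with vehicle at 24 h. Induced genes are mostly higher (35.3%) or matched (32.8%), repressed genes mostly matched (43.7%) or lower (25.3%).

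How far genes had moved beyond the 24 h level went with how strongly vehicle cells induce them. Among 1075 genes induced 2-fold to 4-fold, 20.2% were above the 24 h vehicle level and 49.1% were matched. The share above was 38% of 669 genes induced 4-fold to 16-fold, 52.3% of 365 genes induced 16-fold to 256-fold, and 82.0% of 178 genes induced over 256-fold. In that last bin 3.4% were matched and the median log2 fold change was 2.09. The share below was 4.6%, 7.2%, 8.2% and 5.1% from the weakest to the strongest bin. Of repressed genes, 19.5% of 1201 repressed 2-fold to 4-fold, 41.6% of 387 repressed 4-fold to 16-fold and 41.5% of 41 repressed 16-fold to 256-fold were below the 24 h level. In the same bins 2.0%, 4.7% and 7.3% were above it. The fold of induction is a fitted value that depends on the prior count for genes at 0 in proliferating cells. The low-count filter covered all 8 differentiation libraries, so genes near 0 in vehicle at 24 h passed it through other groups. Such genes could come out above the 24 h level but hardly below it. The bins use the 48 h vehicle level, so the strongest bin may hold more of them. The shares by bin are therefore a description and carry no test.

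**Figure D2:**
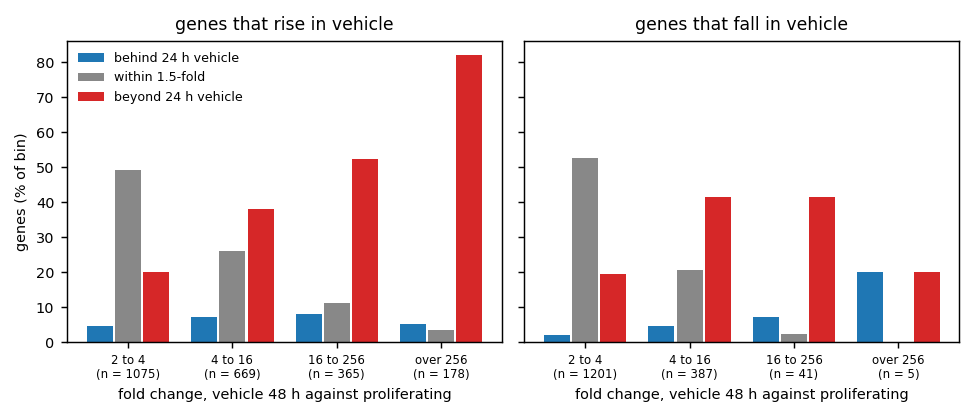
Bars give the share of genes (% of the bin) behind, within 1.5-fold of, or beyond the 24 h vehicle level, by the fitted fold change between proliferating and 48 h vehicle cells, which share no library with the comparison. The share beyond rises from 20.2% to 82.0% over the 4 bins of induced genes, and the last bin of repressed genes holds 5 genes.

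The promoters of 4 genes with different outcomes are printed to show the sequence in front of them: Ckm (the muscle creatine kinase) and Chrng (the fetal gamma subunit of the acetylcholine receptor), which had gone beyond the 24 h level, Cmklr1 (the chemerin receptor), which was behind it, and Cyp1b1 (a cytochrome P450 that is a target of the aryl hydrocarbon receptor), which is not induced by differentiation. Each is the 250 bases before the RefSeq start on build GRCm38.p6, 5′ to 3′ in the direction of the gene. Capitals mark CAGCTG, an E-box that MyoD and myogenin can bind, and GCGTG, the core of the aryl hydrocarbon receptor's element, which appears as CACGC on the other strand.
Ckm, chr7:19410844-19411093, plus strand: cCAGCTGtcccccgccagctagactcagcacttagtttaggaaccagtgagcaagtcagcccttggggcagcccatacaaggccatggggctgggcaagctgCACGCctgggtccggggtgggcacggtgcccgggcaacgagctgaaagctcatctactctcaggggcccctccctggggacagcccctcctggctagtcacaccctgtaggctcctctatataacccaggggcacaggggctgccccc
Chrng, chr1:87205561-87205810, plus strand: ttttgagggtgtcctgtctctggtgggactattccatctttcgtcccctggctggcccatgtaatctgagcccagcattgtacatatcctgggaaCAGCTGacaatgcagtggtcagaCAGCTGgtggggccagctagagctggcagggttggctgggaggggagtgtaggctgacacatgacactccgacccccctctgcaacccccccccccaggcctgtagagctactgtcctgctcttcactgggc
Cmklr1, chr5:113643604-113643853, minus strand: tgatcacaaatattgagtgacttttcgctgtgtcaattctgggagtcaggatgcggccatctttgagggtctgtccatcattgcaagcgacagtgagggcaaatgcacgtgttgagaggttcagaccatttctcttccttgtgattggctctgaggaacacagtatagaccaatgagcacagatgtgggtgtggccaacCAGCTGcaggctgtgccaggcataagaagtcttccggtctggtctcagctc
Cyp1b1, chr17:79715062-79715311, minus strand: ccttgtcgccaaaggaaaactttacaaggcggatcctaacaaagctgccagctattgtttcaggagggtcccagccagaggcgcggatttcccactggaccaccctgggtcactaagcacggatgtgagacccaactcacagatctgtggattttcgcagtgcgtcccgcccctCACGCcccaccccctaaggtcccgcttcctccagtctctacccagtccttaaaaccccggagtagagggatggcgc
CAGCTG occurs 1 time before Ckm, 2 times before Chrng, 1 time before Cmklr1 and not in this window before Cyp1b1. The motif is thus found both before genes that went beyond the 24 h level and before a gene behind it. It was in the window of 8 of 30 named genes with an entry, 26.7%, and of 12.8% of 27025 promoters. GCGTG was before 10 of the 30 (33.3%) and 28.2% of all promoters, and CCAAT, the box bound by NF-Y, before 8 of the 30 (26.7%) and 34.5% of all. These are matches of letters and carry no test.

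The regulators that start the muscle programme were matched about as often as any gene. Of 14 myogenic activators, 9 were matched, where 62.8% of all genes were, 3 were at least 1.5-fold higher and none lower to that degree, with a median log2 fold change of 0.14. Myog, the gene of myogenin, stood at 844 and 835 CPM with vehicle at 24 h and at 1210 and 1178 CPM with PFI-3 at 48 h. The treated libraries were both higher, by 1.42-fold (log2 fold change 0.51, SE 0.04, adjusted p = 3.46e-15 by edgeR), which left the interval inside 1.5-fold. Vehicle cells at 48 h reached a mean of 1833 CPM. Myod1, the factor that commits cells to muscle, was at 252 and 272 CPM against 376 and 382 CPM. This 1.45-fold rise was called (adjusted p = 1.49e-13 by edgeR), but its interval reached beyond 1.5-fold, which left the gene undecided. Nfix, a factor that turns fetal muscle genes on, was at 1063 and 1127 against 1068 and 1020 CPM and did not pass the test (adjusted p = 0.171 by edgeR). Among the activators, Mef2c differed most. This partner of the MyoD family in the later programme was at 1.74 and 0.93 CPM with vehicle at 24 h, at 13.4 and 13.2 CPM with PFI-3 at 48 h and at a mean of 72.5 CPM with vehicle at 48 h. That is a 9.93-fold rise over the 24 h state (log2 3.31, SE 0.20, adjusted p = 3.91e-18). Tead4, a DNA-binding partner of YAP and VGLL proteins, rose 2.02-fold, from 49.1 and 55.9 to 108 and 104 CPM. Myf6, the last of the MyoD family to appear, was under 1.2 CPM in all 4 libraries, and its rise (log2 2.07, SE 0.64) lost its call without library A of either group (adjusted p of 0.0699 and 0.0558).

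Among the inhibitors of myogenesis and progenitor factors, 8 of 13 tested were matched and 2 were at least 1.5-fold higher, near the 62.8% and 9.76% of all genes, with a median log2 fold change of -0.09. The 2 were Id1 and Id3, which sequester the partners of MyoD and fall when myoblasts differentiate. Id3 was at 22.6 and 21.8 CPM with vehicle at 24 h and at 61.9 and 67.1 CPM with PFI-3 at 48 h, 2.9-fold higher (log2 1.54, SE 0.08, adjusted p = 4.52e-21). Proliferating vehicle cells had a mean of 244 CPM and vehicle at 48 h 41.5 CPM, itself above the 24 h level. Id1 was at 17.1 and 14.4 against 29.4 and 31.0 CPM, with 15.7 CPM in vehicle at 48 h. For both genes the groups did not overlap, which with 2 libraries a group is no test by itself. Pax7, the marker of muscle stem cells, was at 165 and 169 against 136 and 130 CPM, and Heyl, a Notch target, at 145 and 150 against 127 and 120 CPM. Both were matched, though called lower. Heyl lost that call in the fit of all 12 libraries (adjusted p = 0.162).

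The contractile genes had gone far beyond the 24 h level. Of 58 sarcomere genes tested, 54 were at least 1.5-fold higher, where 9.76% of all genes were, 1 was matched and none was lower. The median log2 fold change was 2.34, or 2.23 with the 2 genes at 0 in a group set at their bound. The list summed to 8303 and 8380 CPM with vehicle at 24 h, to 30880 and 30370 CPM with PFI-3 at 48 h, and to a mean of 47440 CPM with vehicle at 48 h. The treated cells thus lay between the 2 vehicle stages. Myh3, the embryonic myosin heavy chain, rose from 410 and 406 to 3524 and 3233 CPM, 8.28-fold (log2 3.05, SE 0.04, adjusted p = 4.7e-40), with 5076 CPM in vehicle at 48 h. Acta1, skeletal actin, rose from 543 and 550 to 4262 and 4314 CPM, and Actc1, the cardiac actin that developing muscle uses, from 908 and 904 to 3372 and 3522 CPM. Skeletal actin exceeded its 24 h level by 7.85-fold and cardiac actin by 3.81-fold, so the order of the pair in CPM was turned around. On the length-scaled FPKM values the same turn was seen, with Acta1 at 389 and 391 and Actc1 at 660 and 653 at 24 h, against 3095 and 3129 for Acta1 and 2485 and 2593 for Actc1 with PFI-3 at 48 h.

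Tnnt3, the fast skeletal troponin T, rose 5.89-fold, from 93.9 and 101 CPM to 573 and 575 CPM. Actn2, the alpha-actinin of the Z-disc, rose from 5.85 and 6.71 CPM to 111 and 107 CPM, while vehicle at 48 h had 385 CPM. Smpx, a small protein of the costamere, rose from 1.42 and 1.08 to 25.8 and 28.5 CPM. Myh4, the fast myosin heavy chain of adult muscle, was nearly silent at 24 h, with 2 counts in each vehicle library, and had 228 and 211 counts with PFI-3. The ratio of summed counts was 110, with an exact 95% counting interval of 42.5 to 404. Myh4 was at 17.8 and 16.5 CPM with PFI-3 and at a mean of 16.6 CPM with vehicle at 48 h, so here the 2 cultures at 48 h were alike in level. Reads of Myh4 in 2 of the 4 libraries, and of Myh8, the perinatal myosin, in all 4, were shared with related genes, which leaves their values uncertain. Myh8 was at 5.86 and 6.82 against 142 and 131 CPM. The exceptions in the list, named after their values were seen, were Tpm1, Tmod4, Myl2 and Myot. Tpm1, a tropomyosin also used outside muscle, was matched at 1061 and 1118 against 1176 and 1155 CPM. Tmod4 was undecided, and Myl2 and Myot had too few counts to decide.

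Genes of excitation-contraction coupling, which link the membrane signal to calcium release, behaved like the sarcomere list. Of 23 tested, 21 were at least 1.5-fold higher, where 9.76% of all genes were. None was lower, with a median log2 fold change of 1.64. Their sum was 2140 and 2188 CPM in vehicle at 24 h, 6038 and 5800 CPM with PFI-3 at 48 h and a mean of 8467 CPM in vehicle at 48 h. Ryr1, the calcium release channel, rose 3.72-fold, from 124 and 131 to 506 and 441 CPM. Srl, the calcium-binding protein sarcalumenin, rose from 321 and 322 to 1278 and 1234 CPM. Bin1, which shapes transverse tubules, rose less, 1.81-fold, from 398 and 402 to 730 and 720 CPM. Casq1, the calsequestrin of fast fibres, came from 0.40 and 0.39 CPM to 4.61 and 4.37 CPM, and vehicle at 48 h had 19.98 CPM. The 2 genes of the list that did not rise this far, named after their values were seen, were Ryr3, matched at a log2 fold change of 0.23, and Clcn1, which was undecided.

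Most muscle energy genes were higher as well. Of 19 tested, 13 were at least 1.5-fold higher, where 9.76% of all genes were. Another 4 were matched and none was lower, with a median log2 fold change of 1.93. Ckm rose from 74.3 and 71.5 to 478 and 460 CPM, 6.43-fold (log2 2.68, SE 0.05, adjusted p = 9.93e-37). Its mitochondrial relative Ckmt2 had no count in either vehicle library and 27 counts in each PFI-3 library, at least 18-fold higher against a floor of 3 counts over the group. Eno3, the muscle enolase, differed 1.18-fold, at 338 and 319 against 387 and 387 CPM, and was matched, as were Ckb, Phka1 and Pdk4. Ckb, the brain-type creatine kinase, was at 203 and 184 against 250 and 246 CPM, while vehicle at 48 h had 705 CPM. Mb, myoglobin, rose 3.33-fold, from 18.4 and 18.8 to 62.2 and 61.4 CPM, and was at 453 CPM in vehicle at 48 h. Ckb and Mb were named after their values were seen, as genes far from the 48 h vehicle level.

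**Figure D3:**
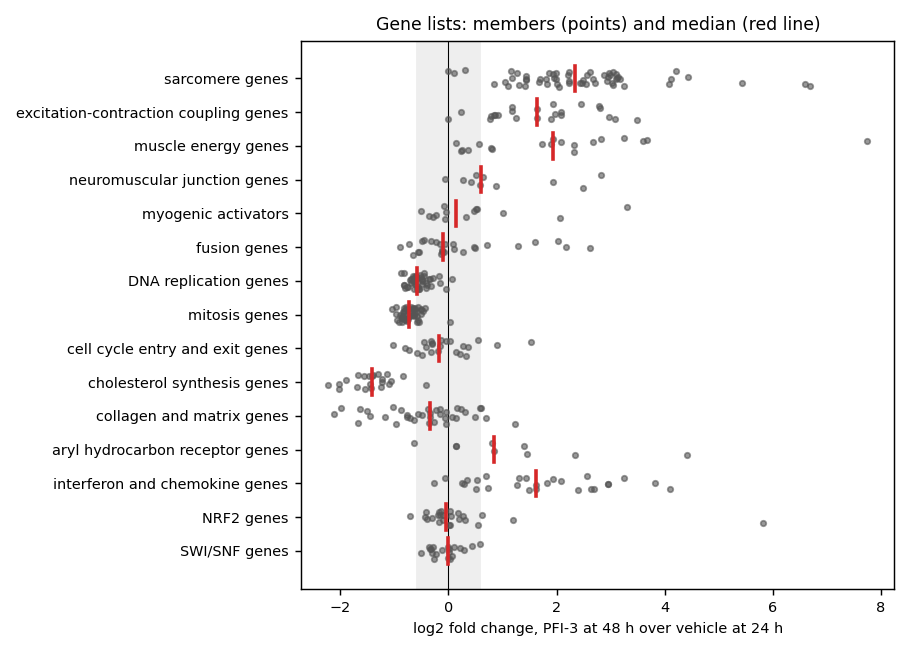
Each point is the log2 fold change of a tested member of a gene list, PFI-3 at 48 h over vehicle at 24 h, and the red line is the median of the list. The shaded band is 1.5-fold in either direction. Sarcomere, coupling and energy genes lie to the right (medians 2.34, 1.64 and 1.93), replication, mitosis and cholesterol genes to the left (medians -0.58, -0.74 and -1.42).

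Fusion and synapse genes were mixed. Of 26 fusion genes tested, 14 were matched, 6 were at least 1.5-fold higher and 3 at least 1.5-fold lower. The shares of all genes were 62.8%, 9.76% and 6.86%, and the median log2 fold change of the list was -0.10. The fusogens themselves had passed the 24 h level. Mymk, myomaker, rose 2.44-fold, from 389 and 402 to 926 and 1005 CPM, and Mymx, myomixer, 1.64-fold, from 44.3 and 45.4 to 72.2 and 75.2 CPM. In vehicle at 48 h they had 1432 and 194 CPM. Cav3, the muscle caveolin, rose 6.13-fold, from 7.19 and 7.02 to 42.2 and 45.1 CPM. The 3 that fell at least 1.5-fold were Dock5, Cdon and Adam12, the latter pair named after their values were seen. Dock5, an exchange factor for Rac, went from 69.8 and 65.8 to 37.2 and 35.2 CPM. Itga7, the laminin receptor subunit of muscle, was matched at 677 and 682 against 834 and 805 CPM.

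Of 10 neuromuscular junction genes, 5 were at least 1.5-fold higher and 3 were matched, where 9.76% and 62.8% of all genes were. None was lower, with a median log2 fold change of 0.61. Chrng rose 3.8-fold, from 132 and 131 to 504 and 494 CPM. Chrna1, the alpha subunit of the same receptor, was matched at 812 and 822 against 1071 and 1120 CPM, with reads shared with other genes in all 4 libraries. Colq, the collagen tail that anchors acetylcholinesterase, rose from 0.71 and 1.31 to 7.34 and 7.17 CPM, close to the 6.77 CPM of vehicle at 48 h.

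**Figure D4:**
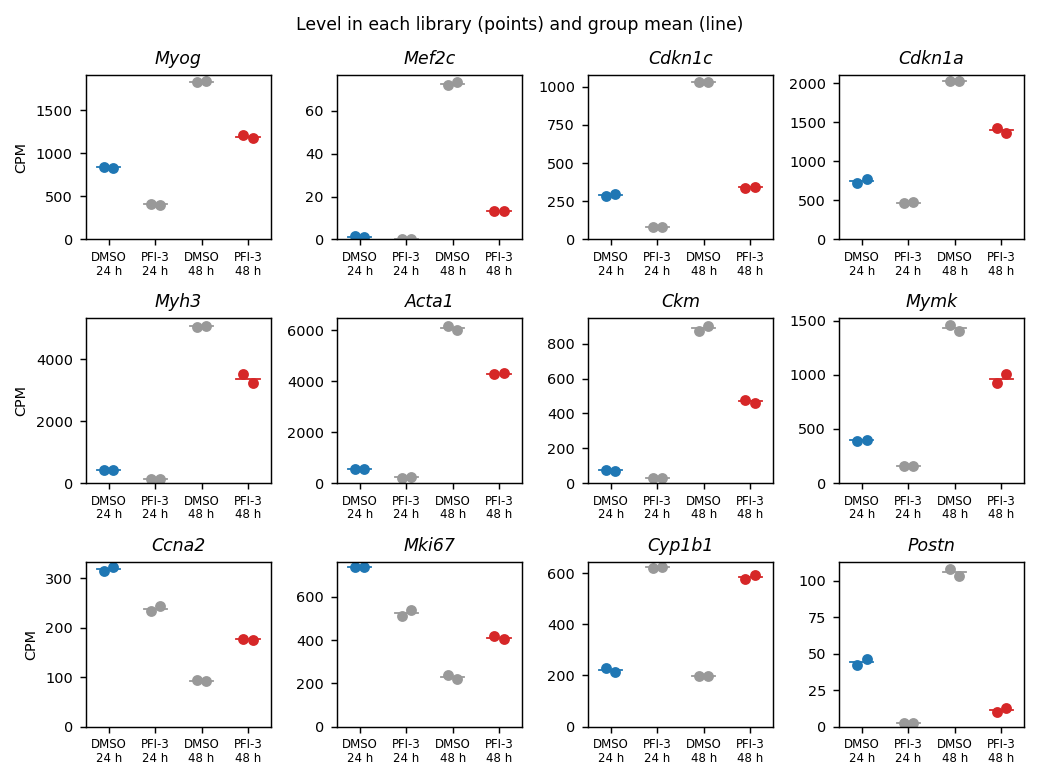
Points are CPM in each of the 2 libraries of the 4 differentiation groups, and lines are group means. The vertical axes start at 0. Vehicle at 24 h is blue and PFI-3 at 48 h red. Myh3, Acta1, Ckm and Mymk with PFI-3 at 48 h lie between the vehicle stages, Cdkn1c lies near the 24 h vehicle level (339 and 341 against 285 and 299 CPM), and Postn lies below it.

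Other induced genes were within 1.5-fold of the 24 h level. The matched induced genes with the strongest induction in vehicle were Myog, Fgf21, Rbm24, Heyl and C1qtnf3. All of these but Fgf21 were also called different from the 24 h level, by under 1.5-fold. Fgf21, a stress hormone that muscle can secrete, was at 19.4 and 20.4 against 20.4 and 20.6 CPM (log2 fold change 0.04, 95% interval -0.16 to 0.23), with a mean of 51.0 CPM in vehicle at 48 h. Rbm24, an RNA-binding protein that governs muscle splicing, was at 262 and 266 against 338 and 352 CPM. C1qtnf3, a secreted C1q-like protein, was at 598 and 548 against 453 and 450 CPM, and vehicle at 48 h had 1434 CPM. Cdkn1c, the gene of the cell cycle inhibitor p57, was at 285 and 299 against 339 and 341 CPM, 1.17-fold higher, with 1029 CPM in vehicle at 48 h. The call of that small rise, and that of the difference in C1qtnf3, was lost in the fit of all 12 libraries (adjusted p of 0.141 and 0.173).

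The 136 induced genes below the 24 h vehicle level include 2 kinds by their vehicle levels. For the first, vehicle was as high or higher at 48 h. Cmklr1 was at 51.5 and 54.6 CPM with vehicle at 24 h and at 10.1 and 7.88 CPM with PFI-3 at 48 h, 5.91-fold lower (log2 -2.56, SE 0.10, adjusted p = 9.91e-25). Vehicle at 48 h had 69.0 CPM, and PFI-3 at 24 h had 3.12 CPM. Postn, periostin of the extracellular matrix, was at 42.4 and 46.3 against 10.1 and 12.4 CPM, with 105.5 CPM in vehicle at 48 h and 2.55 CPM with PFI-3 at 24 h. Rdh5, a retinol dehydrogenase, was at 25.4 and 28.2 against 6.64 and 7.33 CPM, with 29.1 CPM in vehicle at 48 h. For the second kind, vehicle itself had come down. Cdhr1, a protocadherin-like protein best known from photoreceptors, was at 126 and 127 against 25.8 and 28.4 CPM, and vehicle at 48 h had 26.99 CPM. Camk1g, a calmodulin-dependent kinase, was at 13.3 and 13.1 against 2.58 and 2.50 CPM, with 8.85 CPM in vehicle at 48 h. For Cdhr1, therefore, the lower level with PFI-3 at 48 h was also the level of vehicle cells of the same age.

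At the other end, among induced genes averaging 5 CPM or more, leaving out those with mostly fractional counts, such as Myh8, the furthest beyond the 24 h level were Myh4, Dhrs7c, Smpx, Actn2 and Fam78a. Dhrs7c, a dehydrogenase of the sarcoplasmic reticulum, was at 0.79 and 1.23 against 22.6 and 22.6 CPM, with 37.1 CPM in vehicle at 48 h. Fam78a was at 1.19 and 0.69 against 14.4 and 13.1 CPM, with 32.6 CPM in vehicle at 48 h. None of the 4 genes after Myh4 had reached the mean of vehicle at 48 h.

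Cell cycle genes had moved beyond the 24 h state as well, in the downward direction. Of 46 DNA replication genes, 42 were called lower and none higher, and 22 were lower by at least 1.5-fold. The median log2 fold change of the list was -0.58. Of 50 mitosis genes, 49 were called lower and 39 by at least 1.5-fold, with a median of -0.74. Of all genes, 26.3% were called lower and 6.86% were lower by at least 1.5-fold. The mitosis list summed to 7572 and 7448 CPM with vehicle at 24 h and to 4601 and 4581 CPM with PFI-3 at 48 h, against a mean of 2482 CPM with vehicle at 48 h. The replication list summed to 3677 and 3650 against 2522 and 2486 CPM, with 1279 CPM in vehicle at 48 h. In both lists the treated libraries lay between the 2 vehicle stages.

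Mki67, a marker of cycling cells, fell from 736 and 738 to 418 and 406 CPM, 1.79-fold (log2 -0.84, SE 0.04, adjusted p = 4.1e-21). Ccna2, cyclin A2, fell from 314 and 322 to 178 and 175 CPM. Top2a, the topoisomerase that untangles replicated DNA, fell from 563 and 529 to 338 and 340 CPM, and Rrm1, a subunit of ribonucleotide reductase, from 254 and 249 to 171 and 153 CPM. Cdc25c, the phosphatase that admits cells to mitosis, showed the largest fall of its list, from 25.3 and 23.8 to 11.0 and 12.7 CPM. The member of the mitosis list that was not called lower was Cdc25b, at 120 and 123 against 126 and 122 CPM, and in the replication list these were Cdt1, Pold1, Gins3 and Pola2, all 5 named after their values were seen.

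Genes that control entry and exit were matched about as often as any gene. Counting all calls, 8 of 24 were higher and 13 lower, where 26.9% and 26.3% of all genes were. Of 24 tested, 16 were matched, 2 were at least 1.5-fold higher and 3 at least 1.5-fold lower, where the shares of all genes were 62.8%, 9.76% and 6.86%, with a median log2 fold change of -0.17. Ccnd1, cyclin D1, fell 2.04-fold, from 144 and 147 to 73.9 and 68.9 CPM, with 33.5 CPM in vehicle at 48 h. Its relative Ccnd2, cyclin D2, rose 2.88-fold, from 12.2 and 12.1 to 33.6 and 36.6 CPM. Vehicle at 48 h had 7.34 CPM of Ccnd2, PFI-3 at 24 h 38.9 CPM, proliferating vehicle cells 36.3 CPM and proliferating PFI-3 cells 64.6 CPM. The 2 cyclins thus differed from the 24 h level in opposite directions. Ccnd3, which muscle cells keep after exit, was matched at 378 and 389 against 428 and 416 CPM. Cdkn1a, the gene of the inhibitor p21, rose 1.86-fold, from 720 and 779 to 1425 and 1368 CPM, with 2028 CPM in vehicle at 48 h. Of these inhibitors, p21 was thus beyond the 24 h level and p57 within 1.5-fold of it.

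**Figure D5:**
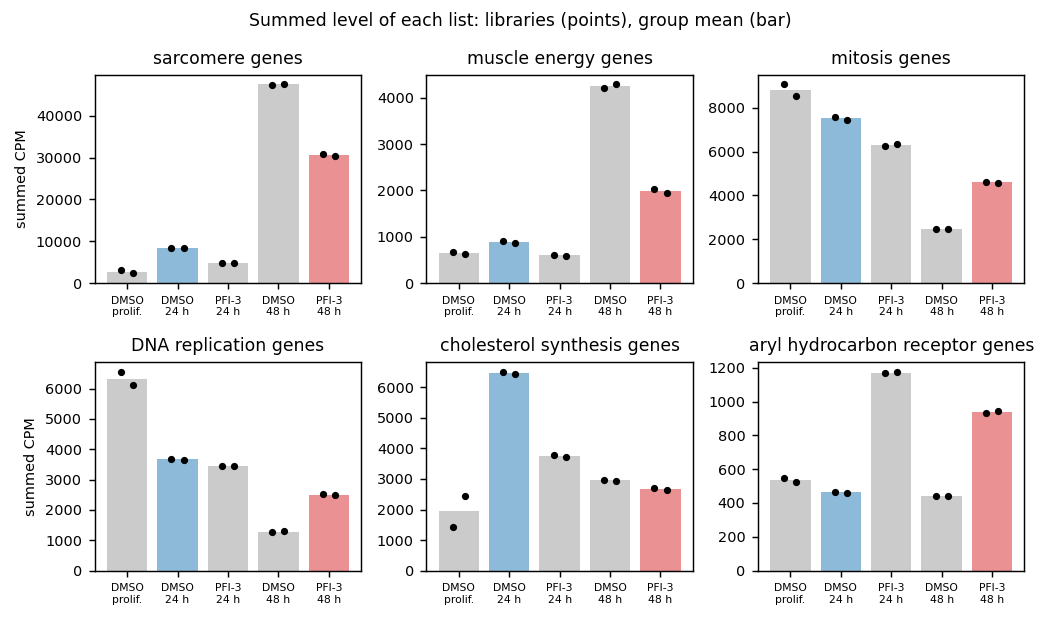
Bars are the mean summed CPM of a gene list in proliferating vehicle cells and the 4 differentiation groups, and points are the 2 libraries. The axes start at 0. Sarcomere, energy, mitosis and replication sums with PFI-3 at 48 h (red) lie between vehicle at 24 h (blue) and at 48 h. Cholesterol sums with PFI-3 at 48 h (mean 2685) lie near vehicle at 48 h (mean 2951), and aryl hydrocarbon receptor sums lie above all vehicle groups.

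The repressed genes above the 24 h level were led by Angptl4, Slc30a1, Id3 and Ccnd2. Angptl4, a secreted inhibitor of lipoprotein lipase, was at 12.6 and 13.5 against 54.3 and 54.0 CPM, 4.14-fold higher (log2 2.05, SE 0.09, adjusted p = 1.14e-23). Proliferating vehicle cells had 67.6 CPM and vehicle at 48 h 9.21 CPM. Slc30a1, the zinc exporter of the plasma membrane, was at 5.06 and 4.71 against 15.8 and 17.8 CPM, with 19.8 CPM in proliferating vehicle cells and 7.66 CPM in vehicle at 48 h. For Slc30a1 and Id3, vehicle at 48 h thus also had a higher mean than at 24 h. These genes were also high with PFI-3 at 24 h, with means of 63.1 CPM for Angptl4, 19.7 CPM for Slc30a1 and 69.4 CPM for Id3.

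Repressed genes furthest below the 24 h level were Il18rap, Adgrg3, Stmn2 and Tnc. Il18rap, a chain of the interleukin 18 receptor, fell from 13.8 and 13.4 to 2.34 and 1.95 CPM, and vehicle at 48 h had 3.18 CPM. For Il18rap and the others alike, the treated libraries were also below the mean of vehicle at 48 h, for Il18rap by the smallest fold. Adgrg3, an adhesion receptor, was at 27.4 and 30.8 against 6.25 and 6.39 CPM, with 18.6 CPM in vehicle at 48 h. Stmn2, a microtubule-destabilizing stathmin, was at 47.2 and 50.2 against 10.2 and 11.0 CPM, with 38.3 CPM in vehicle at 48 h. Tnc, tenascin C of the matrix, was at 292 and 294 against 68.0 and 67.3 CPM, with 260 CPM in vehicle at 48 h. The matched repressed genes with the strongest repression were Ptgs2, Grem1, Nr4a2 and Ccl7. Grem1, an antagonist of bone morphogenetic proteins, was at 75.1 and 75.4 against 68.3 and 57.7 CPM, and vehicle at 48 h had 28.4 CPM.

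Matrix genes were mostly matched or at least 1.5-fold below the 24 h level. Of 37 tested, 14 were at least 1.5-fold lower, 16 were matched and 3 were at least 1.5-fold higher. The shares of all genes were 6.86%, 62.8% and 9.76%, and the median log2 fold change of the list was -0.35. Fn1, fibronectin, was at 5090 and 5280 against 3140 and 2921 CPM, a 1.71-fold fall (log2 -0.77, SE 0.04, adjusted p = 1.56e-20). Col3a1, a fibrillar collagen, did not pass the test at 3287 and 3172 against 3175 and 2983 CPM (adjusted p = 0.134 by edgeR). Leaving out library A of the PFI-3 group brought it under the threshold (adjusted p = 0.0162). Col15a1, of basement membranes, was called higher at 0.55 and 0.93 against 2.19 and 1.33 CPM, and lost the call without library A of either group (adjusted p of 0.146 and 0.233). Of 5 smooth muscle markers tested, 3 were matched, 1 was higher and 1 lower by at least 1.5-fold, with a summed mean of 2644 CPM in vehicle at 24 h and 3600 CPM with PFI-3 at 48 h, nearly all of it Acta2, which developing muscle also makes.

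Cholesterol synthesis genes formed the list that fell most uniformly. All 22 were called lower, 21 of them by at least 1.5-fold, where 6.86% of all genes were, and Srebf2, the transcription factor of the pathway, was matched. The median log2 fold change was -1.42. The list summed to 6513 and 6456 CPM with vehicle at 24 h, 2719 and 2652 CPM with PFI-3 at 48 h, and means of 2951 CPM with vehicle at 48 h and 3741 CPM with PFI-3 at 24 h. Hmgcs1, which makes the precursor HMG-CoA, fell 3.72-fold, from 810 and 785 to 210 and 219 CPM, with 239 CPM in vehicle at 48 h. Srebf2 was at 855 and 863 against 667 and 618 CPM. Lipg, an endothelial-type lipase outside the list, was at 18.2 and 21.4 against 3.36 and 2.96 CPM, with 3.67 CPM in vehicle at 48 h. For this pathway the treated cells were near vehicle cells of the same age, not near those at 24 h.

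A further set of genes stood apart from both vehicle stages. Of 9 aryl hydrocarbon receptor genes tested, 6 were at least 1.5-fold higher and 2 were matched, where 9.76% and 62.8% of all genes were. The list had 1 lower member and a median log2 fold change of 0.85. Cyp1b1 was at 228 and 215 CPM with vehicle at 24 h and 578 and 594 CPM with PFI-3 at 48 h, 2.65-fold higher (log2 1.40, SE 0.04, adjusted p = 6.76e-29). It was at 198 CPM in vehicle at 48 h, 271 CPM in proliferating vehicle cells and 623 CPM with PFI-3 at 24 h. The related Cyp1a1 had 2 and 1 counts in vehicle and 36 and 33 with PFI-3, a ratio of summed counts of 23 with an exact 95% counting interval of 7.54 to 114. The receptor gene Ahr was the lower member, at 26.5 and 25.3 against 15.5 and 17.9 CPM. Its partner Arnt was matched, and its small called rise (log2 0.13) was lost in 6 alternative fits.

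Interferon and chemokine genes were higher too. Of 27 tested, 20 were at least 1.5-fold higher and 3 were matched, where 9.76% and 62.8% of all genes were. None was at least 1.5-fold lower, with a median log2 fold change of 1.62. The list's sum was small, 492 and 498 CPM with vehicle at 24 h and 794 and 805 CPM with PFI-3 at 48 h. Ccl5, a chemokine for T cells, was at 1.66 and 1.47 against 24.6 and 29.5 CPM, 17.2-fold higher (log2 4.11, SE 0.17, adjusted p = 9.68e-24). It was at 1.30 CPM in vehicle at 48 h and 24.0 CPM with PFI-3 at 24 h, while the 2 libraries of proliferating vehicle cells disagreed, at 30.1 and 0.37 CPM. Cxcl5, a chemokine for neutrophils, rose 2.48-fold, from 66.0 and 58.5 to 150 and 158 CPM, with 21.9 CPM in vehicle at 48 h. Cxcl12, the most abundant of the list, was matched at 187 and 198 against 159 and 160 CPM. The interferon-stimulated Ifit1 followed another order, with 3.87 and 3.16 against 26.9 and 27.9 CPM and a mean of 60.3 CPM in vehicle at 48 h. Ifit1 was named after its values were seen. The leukocyte and endothelial markers summed to a mean of 1.60 CPM with vehicle at 24 h and 1.99 CPM with PFI-3 at 48 h.

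Most SWI/SNF genes, including 2 of the 3 targets of the compound, were within 1.5-fold of their 24 h levels. Of 20 tested, 17 were matched, where 62.8% of all genes were, and none differed by at least 1.5-fold with a call, with a median log2 fold change of -0.01. Smarca4, the gene of BRG1, was at 372 and 388 against 362 and 334 CPM, and its small fall (log2 -0.12, adjusted p = 0.0159) lost its call without library B of either group (adjusted p of 0.173 and 0.26). Pbrm1 was at 215 and 213 against 174 and 171 CPM. Smarca2, the gene of BRM, was at 52.5 and 52.4 against 81.0 and 76.3 CPM, a 1.5-fold rise (log2 0.58, SE 0.06, adjusted p = 2.2e-10) whose interval reached beyond 1.5-fold. Vehicle at 48 h had 66.0 CPM of Smarca2 and PFI-3 at 24 h 78.1 CPM. PFI-3 acts on the proteins, so these levels say how much RNA of the targets there was, not how active they were.

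Insulin-like growth factor genes differed from the 24 h level in both directions. Igf2, a growth factor that myoblasts secrete as they differentiate, rose 5.23-fold, from 142 and 144 to 758 and 742 CPM, and vehicle at 48 h had 840 CPM. Igfbp2, a binding protein, fell 3.56-fold, from 171 and 187 to 50.2 and 50.1 CPM, with 43.2 CPM in vehicle at 48 h. Igfbp5, the most abundant gene of the list, was matched at 11780 and 12510 against 10830 and 10700 CPM. Of the 13 genes, 6 were matched, 2 were at least 1.5-fold higher and 2 at least 1.5-fold lower. The shares of all genes were 62.8%, 9.76% and 6.86%, and the median log2 fold change of the list was 0.04.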

How the data were processed

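RNA of the 4 libraries compared, and of the 8 others that served for the shared spread, the direction classes and levels given alongside, was measured by RNA sequencing. The authors deposited 1 table per library with expected counts and FPKM values per gene, per the file headers. The submitters' processing notes name HISAT, StringTie, Cufflinks, Bowtie, RSEM and DESeq2 and the build mm10, without roles. Expected counts were rounded (93.3% to 93.7% were whole), and a gene absent from a table was taken as 0. In 6963 cases a gene was listed in only 1 library of a pair, and 97.0% of these had a count no higher than 5.

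One edgeR 4.0.16 quasi-likelihood model (R 4.3.3) with TMM scaling and 4 groups was fitted to the 8 differentiation libraries. The filter was edgeR's filterByExpr, and p-values were adjusted over all 12371 genes. CPM uses TMM-adjusted totals. Standard errors and 95% intervals came from the same test. Intervals of count ratios are exact binomial and, like the floor of 3 counts, cover counting error only, since PCR reads without molecular identifiers are not independent molecules. Direction classes came from a separate fit of 4 libraries.

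Members and gene lists were chosen with earlier results of these data known. Named genes were a list of 27, taken at any level. Added to it were the 6 largest rises and falls, and the 5 induced or 4 repressed genes largest in each class. These additions had a mean of at least 5 CPM. From each list up to 4 members were added: the largest called rise and fall and the 2 highest in mean CPM. A gene that this rule names is not reported here. Genes with fractional counts in 3 or 4 of the 4 libraries were skipped there. Of 41 genes with a promoter sought, 30 had an upstream sequence in the RefSeq table. The tests were tested on simulated data.

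Alternatives were DESeq2 1.42.0, limma 3.58.1 on log2(FPKM + 1) and log2(FPKM + 0.1), other scaling, filters, libraries and thresholds, a replicate block and leaving out each library.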

Additional observations from a re-analysis of the deposited data

How the results depend on the processing

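With all 12 libraries, 2164 genes were lower and 2263 higher, and 4416 of the 4427 calls were among the 6587 reported. At a 2-fold threshold 689 were higher and 299 lower. With the narrower interval of 5/4-fold, 3899 genes were matched in all, with 266 induced matched, and 75 repressed genes behind, 216 matched and 835 ahead. With classes of at least 4-fold, 87 induced genes were behind and 221 matched, and 22 repressed genes were behind, 81 matched and 179 ahead. On log2(FPKM + 1), 77 induced genes were behind and 1228 matched, and 27 repressed genes were behind. Leaving out each of the 4 libraries gave 2790 to 2980 higher and 2817 to 2923 lower genes, 7163 to 7292 matched, 117 to 131 induced behind, 659 to 685 matched and 752 to 794 ahead, and 38 to 50 repressed behind, 625 to 640 matched and 406 to 424 ahead. The replicate block gave 3333 higher and 3266 lower genes, and same-letter libraries did not deviate together (correlation -0.04), so the letters are not treated as pairs. The other 124 values stayed within 1.5 times of those reported. Of 1548 values of 111 named genes, 37 lost their call, 1 gained it (Col3a1) and none changed sign. The share of calls that were higher was 50.5%, 49.1% with DESeq2-style size factors, and 54.5% and 54.7% with limma on the 2 FPKM scales. Genes under about 3 counts in a group cannot be placed, and levels near a 1.5-fold boundary stay undecided with 2 libraries a group.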

Other observations

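Of 14 ATF4 stress genes, which supply amino acids under stress, 7 were matched, 6 were at least 1.5-fold lower, where 6.86% of all genes were, and none was at least 1.5-fold higher with PFI-3 at 48 h than with vehicle at 24 h, with a median log2 fold change of -0.43. Atf4 itself was at 426 and 431 CPM against 252 and 269 CPM, 1.65-fold lower (log2 -0.72, SE 0.04, adjusted p = 1.41e-18 by edgeR), with 314 CPM in vehicle at 48 h. Trib3, a pseudokinase target of ATF4, was at 6.72 and 5.48 against 2.73 and 1.95 CPM, and lost its call in the fit of all 12 libraries (adjusted p = 0.152). Of 13 immediate early genes, 5 were matched, 3 were at least 1.5-fold higher and 1 lower. The shares of all genes were 62.8%, 9.76% and 6.86%. Fos was at 2.69 and 2.01 against 5.93 and 4.60 CPM, while its relative Fosl1, which falls in differentiation, was at 37.0 and 41.4 against 21.4 and 25.3 CPM.

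NRF2 genes, the antioxidant response, had 18 of 24 tested matched, where 62.8% of all genes were, and a median log2 fold change of -0.04. G6pdx, which supplies NADPH, was 1.63-fold lower, with 72.7 and 76.8 CPM in the PFI-3 libraries. Gsta2, a glutathione transferase, had no count with vehicle at 24 h and 7 in each PFI-3 library, at least 4.66-fold higher against a floor of 3 counts over the group.

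The 2 deposited scales differed for Tpm1, chosen after its values were seen. Its counts differed 1.07-fold, from 1061 and 1118 to 1176 and 1155 CPM, while its FPKM values, which divide by transcript length, were 690 and 720 against 904 and 886. Whether the mix of Tpm1 transcripts differed was not tested.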
